A study of Homo sapiens with 4 samples.

Results

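Mammalian cells methylate cytosine, mostly where it is followed by guanine (CpG), and copy the pattern when DNA is replicated. DNMT1 carries out this copying, guided by UHRF1, which reads hemimethylated CpG sites and is related to UHRF2. DNMT3A and DNMT3B place new methyl groups, and DNMT3L is a catalytically inactive partner of these 2 enzymes. TET1, TET2 and TET3 oxidize 5-methylcytosine and so start its removal, and MBD2 binds methylated CpG sites and brings the NuRD chromatin remodelling and deacetylase complex to them. The expression of these 10 genes was compared between WT and C/EBPβ enh-/- cells, because the study concerned the methylation of an enhancer of the CEBPB gene. The 10 genes were listed by name, 9 of them matched an identifier in the files, and 7 of those were among the 12491 tested genes out of 57768. UHRF1 could not be matched, because its current Ensembl identifier is absent from the deposited values and no older identifier was mapped to it. Its expression was therefore not analysed here, which does not mean that it was not measured.

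The RNA-seq libraries came from cells labelled HepG2, an established human liver cancer cell line, cultured in Dulbecco's modified Eagle's medium with fetal bovine serum. WT cells keep the C/EBPβ enhancer on both alleles (n = 2). In C/EBPβ enh-/- cells (n = 2) it had been deleted from both alleles with CRISPR/Cas9. Whether the C/EBPβ enh-/- cells were a single clone, and whether the libraries of a genotype came from separate cultures, is not given in the sources used here. The p-values therefore measure only the spread between these libraries, and a difference between the genotypes cannot be told apart from a difference between the cells that were expanded. Each library was deposited as FPKM, the number of fragments of a gene scaled by its transcript length and by the size of the library. In these bulk values, fewer cells expressing a gene and less RNA per cell cannot be told apart.

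CEBPB, the gene that the deleted enhancer acts on, had 30.6 and 19.2 FPKM in the WT libraries and 12.4 and 11.8 FPKM without the enhancer (log2 fold change −0.94, standard error 0.27, adjusted p = 0.125, limma). The values did not overlap. The defining markers of liver cells were nearly absent. Of 20 hepatocyte and HepG2 markers, 18 were under 1 FPKM in all 4 libraries, and VTN and CEBPA were the exceptions. The summed level of the 20 was at most 1.99 FPKM in WT and 3.54 to 3.94 FPKM in C/EBPβ enh-/- cells. CEBPA (0.524 and 0.000130 against 1.55 and 1.63 FPKM) and VTN (0.864 and 0.800 against 1.44 and 1.11 FPKM) carried most of this difference. TTR, TF and FGA were also separated in the higher direction. APOA2, SERPINA1, FGG, RBP4 and HNF4A, at most 0.0868 FPKM, were separated in the lower direction. The part of these markers in the results below was not tested. ALB and AFP, which encode albumin and alpha-fetoprotein, reached at most 0.0553 and 0.0605 FPKM. The label of the cell line was thus not borne out by its marker genes, and the results below are for the cells as labelled. All 5 blood cell markers and all 3 endothelial markers that matched were under 1 FPKM in every library. Of 6 fibroblast markers, COL1A1 and COL3A1 were above 10 FPKM in every library, and 3 were under 1 FPKM in all 4 libraries. These 3, COL1A2, LUM and PDGFRA, reached at most 0.00441, 0.0600 and 0.0212 FPKM. Sums over the list, mostly of COL1A1 and COL3A1, were 44.6 to 50.05 FPKM in WT and 56.1 to 71.1 FPKM in C/EBPβ enh-/- cells. COL3A1 was separated in the higher direction, COL1A1 overlapped (log2 fold change −0.10), and DCN was lower, at 1.33 and 1.24 FPKM against 0.110 and 0.392 FPKM. Judged from the spacing of low values, WT library 2 was about 1.12 times as deep as WT library 1. The first C/EBPβ enh-/- library was the least deep of all, at 0.554 times, and the second the deepest, at 1.22 times.

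The sequence around the transcription starts of these genes differed widely in CpG content. RefSeq sequences (GRCh38.p14) from 250 bases before to 50 bases after a transcription start were found for 9 of the 10 genes, 20 starts in all. These 9 include UHRF1 and lack DNMT3L, unlike the 9 genes with expression values. The number of CpG sites in these 300 bases was 30 in DNMT1, 26 in UHRF2, 45 in the first listed start of TET3 and 10 in that of TET1, against a median of 14 over 35116 promoters. These 4 are printed below because they range from below the median to CpG-rich and include the most and the least expressed of the genes in WT cells. DNMT1 (chr19:10194904-10195203) lies on the minus strand. UHRF2 (chr9:6412949-6413248), TET1 (chr10:68560087-68560386) and TET3 (chr2:73984660-73984959) lie on the plus strand. In RefSeq, the starts of DNMT1, UHRF2 and TET1 are the 5′ ends of the genes, and that of TET3 lies 1279 bases inside the gene. The listed DNMT3B start, with 3 CpG sites, lies 17467 bases inside the gene and is not printed, since it does not represent the sequence at the gene's 5′ end. Capitals mark CpG sites.
DNMT1: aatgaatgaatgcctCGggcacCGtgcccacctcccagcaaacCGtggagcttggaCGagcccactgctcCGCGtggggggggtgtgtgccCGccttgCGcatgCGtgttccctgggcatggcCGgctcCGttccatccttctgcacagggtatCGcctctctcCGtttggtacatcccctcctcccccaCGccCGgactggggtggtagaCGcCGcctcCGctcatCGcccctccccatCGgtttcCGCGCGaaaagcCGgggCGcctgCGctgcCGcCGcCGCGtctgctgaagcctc
UHRF2: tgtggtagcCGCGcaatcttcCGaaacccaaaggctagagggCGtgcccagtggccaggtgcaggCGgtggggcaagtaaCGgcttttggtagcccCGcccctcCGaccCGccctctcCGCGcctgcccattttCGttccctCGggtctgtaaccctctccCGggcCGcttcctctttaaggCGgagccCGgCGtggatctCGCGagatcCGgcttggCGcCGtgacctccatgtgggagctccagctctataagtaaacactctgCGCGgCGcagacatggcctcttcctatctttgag
TET1: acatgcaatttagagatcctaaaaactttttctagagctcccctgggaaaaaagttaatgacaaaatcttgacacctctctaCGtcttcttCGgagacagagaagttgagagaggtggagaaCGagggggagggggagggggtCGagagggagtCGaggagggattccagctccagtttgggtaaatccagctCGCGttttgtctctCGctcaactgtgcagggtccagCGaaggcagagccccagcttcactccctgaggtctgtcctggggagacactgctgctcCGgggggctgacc
TET3: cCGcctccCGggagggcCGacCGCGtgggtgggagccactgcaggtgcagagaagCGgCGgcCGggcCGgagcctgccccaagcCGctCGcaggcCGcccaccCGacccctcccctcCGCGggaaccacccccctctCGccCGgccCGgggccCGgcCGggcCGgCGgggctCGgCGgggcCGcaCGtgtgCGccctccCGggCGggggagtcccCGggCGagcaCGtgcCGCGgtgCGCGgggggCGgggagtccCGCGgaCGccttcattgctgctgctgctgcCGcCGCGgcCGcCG

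Both strands of the 20 promoters were searched for short motifs. TTGCNCAA, a form of the site bound by C/EBP proteins, was in 0 of the 20 and in 2.61% of all promoters. TTTCGCGC or TTTGGCGC, forms of the E2F site, were in 2 of the 20, a start of DNMT1 and a start of UHRF1, and in 403 of the 35116 promoters. CCAAT was in 6 of the 20 (34.6% of all promoters) and GGGCGG in 13 of the 20 (45.0%). Some windows of DNMT3A, TET1 and UHRF1 overlap each other, so these counts are not of 20 separate sequences. The matches describe the letters of these windows and do not show binding.

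The levels of the 9 genes spanned a wide range. DNMT1 and MBD2 were the most abundant, at 50.1 ± 4.29 and 46.5 ± 7.21 FPKM (SD, n = 2) in WT cells, followed by UHRF2 at 18.7 ± 1.24 FPKM (SD, n = 2). TET2, TET3, DNMT3A and DNMT3B lay between 1.001 and 4.19 FPKM in WT means. DNMT3L and TET1 were close to 0, with at most 0.0430 and 0.0128 FPKM in any library. Since FPKM is per length, these levels can be set side by side. In WT cells only DNMT1 and MBD2 overlapped as neighbours in this order. In C/EBPβ enh-/- cells MBD2 (39.2 FPKM) stood above DNMT1 (36.4 FPKM), and TET3 overlapped DNMT3A, DNMT3A overlapped DNMT3B and DNMT3L overlapped TET1.

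**Figure D1:**
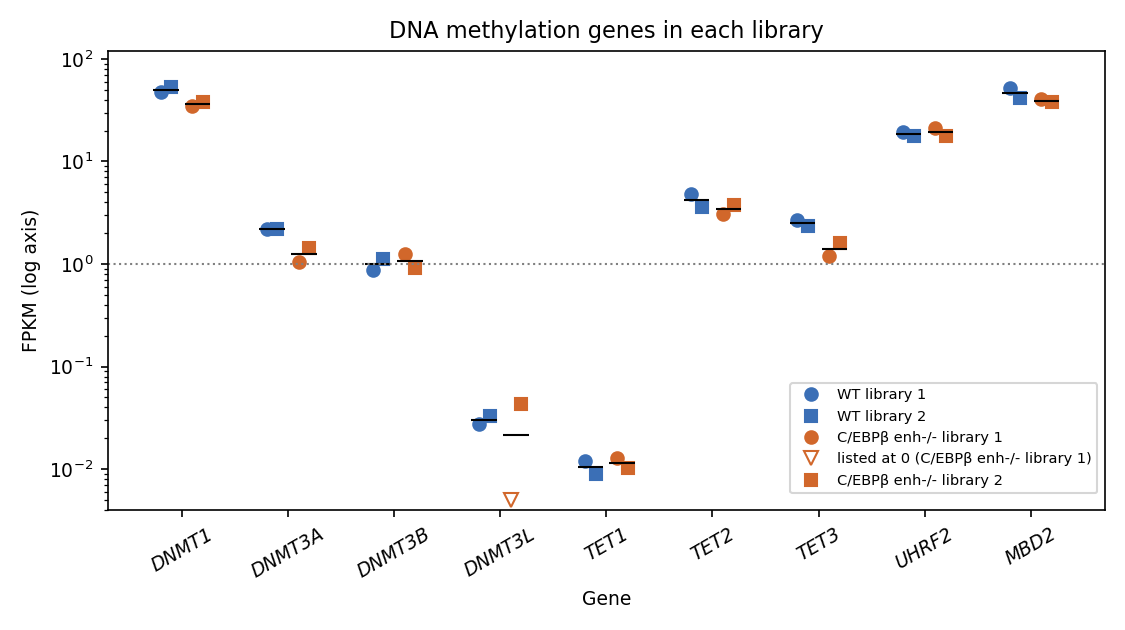
FPKM of each DNA methylation gene (log axis) in the 4 libraries, with WT in blue and C/EBPβ enh-/- in orange, library 1 as circles, library 2 as squares and genotype means as bars; the dotted line is 1 FPKM and the open triangle is DNMT3L, listed at 0. DNMT1, MBD2 and UHRF2 lie above 17 FPKM in every library and DNMT3L and TET1 below 0.05 FPKM.

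Of the 7 tested genes, 0 passed the threshold of an adjusted p of 0.05 between genotypes (limma with Benjamini-Hochberg adjustment over all tested genes), and 0 had an unadjusted p under 0.05. Over all 12491 tested genes, 151 (1.21%) were lower without the enhancer and 31 (0.248%) were higher. For 4 of the 7, DNMT1, DNMT3A, TET3 and MBD2, each C/EBPβ enh-/- value was lower than each WT value, and for 0 of the 7 each was higher. Over all tested genes, 37.5% were separated in this way in the lower and 15.1% in the higher direction. The median log2 fold change was −0.23 over the 7 genes and −0.14 over all tested genes, on the scale of log2(FPKM + 1), which understates the change of low genes. Another scaling moved the median of all genes by up to 0.20, and DNMT1, DNMT3A and TET3 remained separated under each of the 3 other scalings while MBD2 did not. The size of the changes depended on the scaling. DNMT1 was at −0.22 when rescaled without the highest genes and at −0.27 when centred on the median, DNMT3A at −0.36 and −0.34, and TET3 at −0.40 and −0.38. DNMT3B and UHRF2, 2 of the 7 (28.6%), were separated in the higher direction under both of these scalings, near the share of all tested genes. When centred, 25.2% of all tested genes were separated in the lower and 28.1% in the higher direction, with 47.1% below 0 and a median of 0.03. When rescaled without the highest genes, these shares were 23.1%, 30.3% and 44.8%, with a median of 0.06. The median of the 7 genes was −0.06 when centred and −0.04 when rescaled without the highest genes. The standard errors of the 7 log2 fold changes were 0.21 to 0.28, so a missed threshold does not show that the genotypes were alike.

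**Figure D2:**
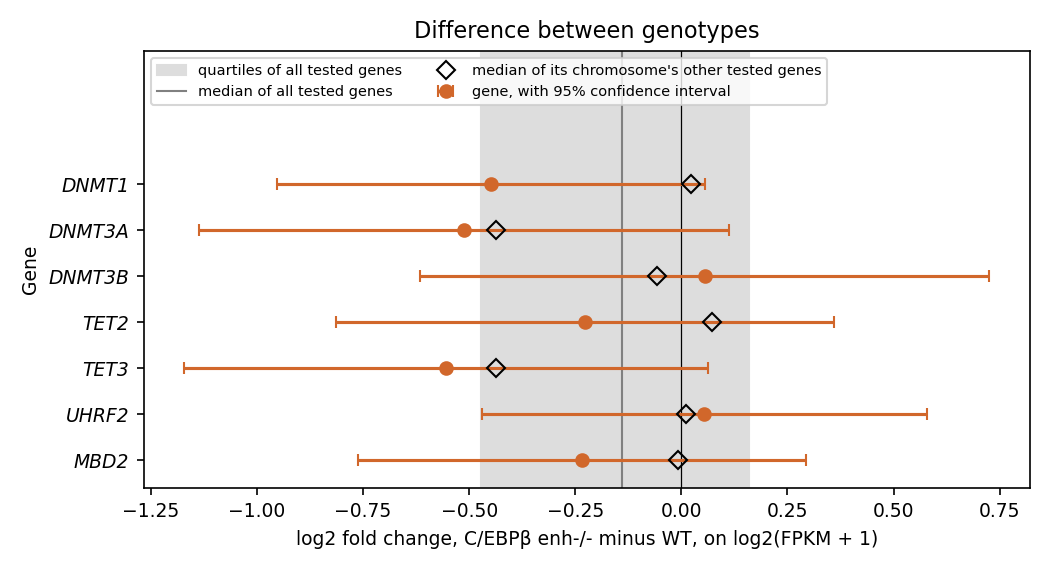
Log2 fold change of the 7 tested genes, C/EBPβ enh-/- minus WT, on log2(FPKM + 1), as points with 95% confidence intervals from limma. The grey band spans the quartiles of all tested genes (−0.47 to 0.16), the grey line is their median (−0.14), and diamonds are the median of the other tested genes on the same chromosome; every interval includes 0.

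Among the methyltransferases, DNMT1 (ENSG00000130816.10, GRCh37 chromosome 19 from 10244018 to 10341962, minus strand) had 47.0 and 53.1 FPKM in the WT libraries and 34.9 and 37.9 FPKM in the C/EBPβ enh-/- libraries. The groups did not overlap, and the C/EBPβ enh-/- mean was 72.7% of the WT mean. Its log2 fold change was −0.45 (standard error 0.21, 95% confidence interval −0.95 to 0.06, adjusted p = 0.282, limma). It ranked between 1398 and 1546 by level among the tested genes in the WT libraries and between 1579 and 1903 in the C/EBPβ enh-/- libraries. DNMT3A (ENSG00000119772.12, chromosome 2 from 25450724 to 25565459, minus strand) had 2.18 and 2.20 FPKM in WT and 1.05 and 1.44 FPKM in C/EBPβ enh-/- cells. The WT libraries were nearly equal and both C/EBPβ enh-/- libraries were lower, with a mean of 56.9% of WT. The log2 fold change of DNMT3A was −0.51 (standard error 0.26, 95% confidence interval −1.14 to 0.11, adjusted p = 0.316, limma). DNMT3B (ENSG00000088305.14, chromosome 20 from 31350191 to 31397165, plus strand) had 0.879 and 1.12 FPKM in WT and 1.24 and 0.919 FPKM in C/EBPβ enh-/- cells. These values interleaved, with a log2 fold change of 0.05 (95% confidence interval −0.62 to 0.73, adjusted p = 0.934, limma). DNMT3L (ENSG00000142182.4, chromosome 21 from 45666222 to 45682099, minus strand) had 0.0272 and 0.0333 FPKM in WT and 0 and 0.0430 FPKM in C/EBPβ enh-/- cells. These values correspond to roughly 4.19 fragments at most, and an antisense RNA, DNMT3L-AS1, shares 241 bases of its exons, so no comparison of genotypes was made.

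Within the TET family, TET2 carried most of the level and TET1 almost none. TET2 (ENSG00000168769.8, chromosome 4 from 106067032 to 106200973, plus strand) had 4.77 and 3.61 FPKM in WT and 3.10 and 3.74 FPKM in C/EBPβ enh-/- cells. The lower WT library lay between the C/EBPβ enh-/- libraries, and the log2 fold change was −0.23 (95% confidence interval −0.81 to 0.36, adjusted p = 0.645, limma). TET3 (ENSG00000187605.11, chromosome 2 from 74212037 to 74335303, plus strand) had 2.70 and 2.36 FPKM in WT and 1.20 and 1.62 FPKM in C/EBPβ enh-/- cells. The groups did not overlap, and the C/EBPβ enh-/- mean was 55.7% of WT. The log2 fold change of TET3 was −0.55 (standard error 0.26, 95% confidence interval −1.17 to 0.06, adjusted p = 0.279, limma), the largest in size among the 7 genes. A lncRNA gene on the same strand, ENSG00000235499, shares 390 bases of exon with TET3, so fragments could be divided between them. This lncRNA gene had 2.57 and 2.49 FPKM in WT and 1.905 and 1.45 FPKM in C/EBPβ enh-/- cells. TET1 (ENSG00000138336.8, chromosome 10 from 70320094 to 70454244, plus strand) had 0.0120 and 0.00895 FPKM in WT and 0.0128 and 0.0103 FPKM in C/EBPβ enh-/- cells. At its exon length of 9.61 kb this is about 2.91 to 5.20 fragments per library, and a difference was not detectable at this depth.

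Neither of the matched readers passed the test. UHRF2 (ENSG00000147854.12, chromosome 9 from 6413151 to 6507054, plus strand), a ubiquitin ligase, had 19.6 and 17.8 FPKM in WT and 21.3 and 17.6 FPKM in C/EBPβ enh-/- cells. Its values overlapped, with a log2 fold change of 0.05 (95% confidence interval −0.47 to 0.58, adjusted p = 0.914, limma). MBD2 (ENSG00000134046.7, chromosome 18 from 51677976 to 51751039, minus strand) had 51.6 and 41.4 FPKM in WT and 40.3 and 38.1 FPKM in C/EBPβ enh-/- cells. The groups were separated by a gap smaller than the difference between the WT libraries. The log2 fold change of MBD2 was −0.23 (95% confidence interval −0.76 to 0.29, adjusted p = 0.589, limma).

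Ratios of FPKM within a library do not depend on how libraries are scaled to each other. DNMT1 made up 93.8% to 94.1% of the summed level of DNMT1, DNMT3A and DNMT3B in all 4 libraries. Its ratio to DNMT3A and DNMT3B together was 15.4 and 16.0 in WT and 15.2 and 16.0 in C/EBPβ enh-/- cells, which overlap. The ratio of DNMT3B to DNMT3A was 0.404 and 0.511 in WT and 1.19 and 0.636 in C/EBPβ enh-/- cells. Both C/EBPβ enh-/- libraries were higher, although they lay further from each other than the lower of them lay from WT. The ratio of TET3 to TET2 was 0.565 and 0.655 in WT and 0.387 and 0.433 in C/EBPβ enh-/- cells, and here the gap between genotypes was wider than the gap between libraries of either genotype. TET3 made up 36.0% and 39.5% of the TET total in WT and 27.8% and 30.2% in C/EBPβ enh-/- cells. The ratio of the 3 methyltransferases to the 3 TET genes was 6.69 and 9.44 in WT and 8.62 and 7.497 in C/EBPβ enh-/- cells, with means of 8.06 ± 1.94 and 8.06 ± 0.796 (SD, n = 2). UHRF2 to DNMT1 was 0.416 and 0.335 in WT and 0.611 and 0.466 in C/EBPβ enh-/- cells. MBD2 to DNMT1 was 1.10 and 0.780 in WT and 1.16 and 1.01 in C/EBPβ enh-/- cells, which overlap. These 2 ratios and that of DNMT1 to DNMT3A and DNMT3B were chosen after values were seen. With n = 2 per genotype, the smallest p of a two-sided exact permutation test is 0.333, which is the value for the ratios of DNMT3B to DNMT3A, TET3 to TET2 and UHRF2 to DNMT1.

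**Figure D3:**
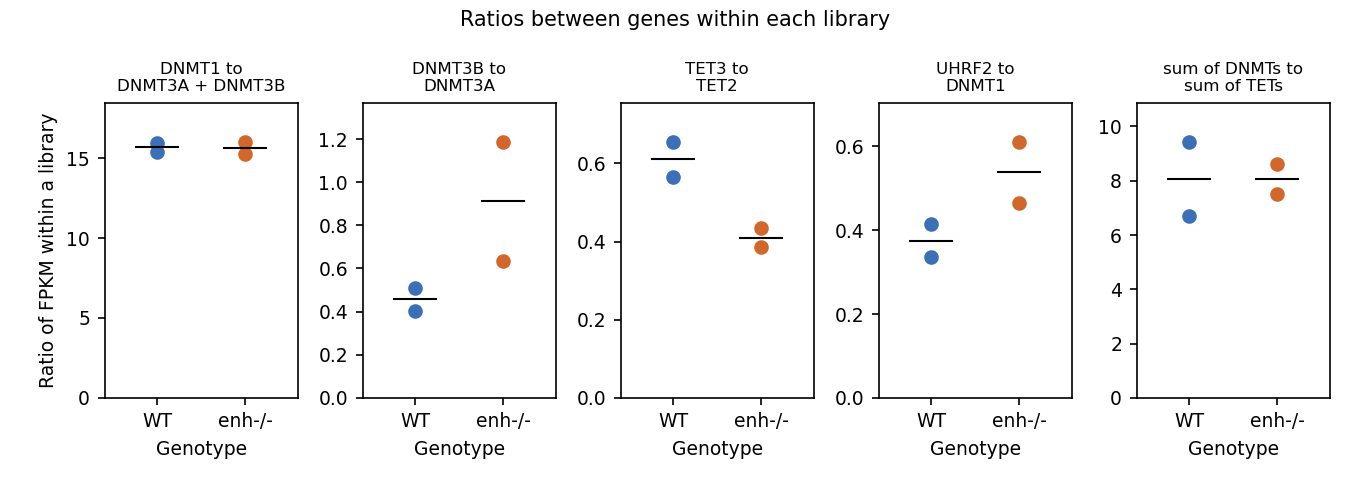
Ratios of FPKM between genes of the same library for WT (blue) and C/EBPβ enh-/- (orange), with 1 point per library, bars at the genotype means and axes from 0. DNMT1 to DNMT3A and DNMT3B lies between 15.2 and 16.0 in every library, while TET3 to TET2 is 0.565 and 0.655 in WT and 0.387 and 0.433 in C/EBPβ enh-/- cells.

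The median log2 fold change differed from chromosome to chromosome, and DNMT3A and TET3 both lie on 1 with a low median. The 794 other tested genes of chromosome 2 had a median log2 fold change of −0.44, the fourth lowest of 23 chromosomes. Relative to this median DNMT3A was at −0.08 and TET3 at −0.12. These offsets depended on the pseudocount. With a pseudocount of 0.1, an alternative added for this comparison after the values were seen, DNMT3A was at −0.78 and TET3 at −0.81, the chromosome median at −0.51, and the offsets at −0.27 and −0.30. Both genes then still lay above the lower quartile of the chromosome (−0.90). Within 5 Mb on each side, the 62 other tested genes around DNMT3A had a median of −0.39 and the 64 around TET3 of −0.15, which put DNMT3A at −0.12 and TET3 at −0.41 relative to their neighbours (−0.34 and −0.65 with a pseudocount of 0.1). For DNMT1, the 810 other genes of chromosome 19 had a median of 0.02 and the 173 within 5 Mb had −0.04, so that it was at −0.47 relative to the chromosome and at −0.40 relative to its neighbours. TET2 was at −0.30, MBD2 at −0.23, DNMT3B at 0.11 and UHRF2 at 0.04 relative to their chromosomes. Several genes named below also lie on chromosomes with low medians, CDCA7, MBD5 and IDH1 on chromosome 2, CHD3 and SHMT1 on chromosome 17 (median −0.47), MTA1 and APEX1 on chromosome 14 (−0.39), MCM5 on chromosome 22 (−0.41) and HELLS on chromosome 10 (−0.34). Other genes named below lie on the same chromosomes and were above 0, MAT2A on chromosome 2 (0.09), MKI67 on chromosome 10 (0.39) and MOV10L1 on chromosome 22 (0.47). Whether the number of chromosome copies differs between the cells was not tested.

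**Figure D4:**
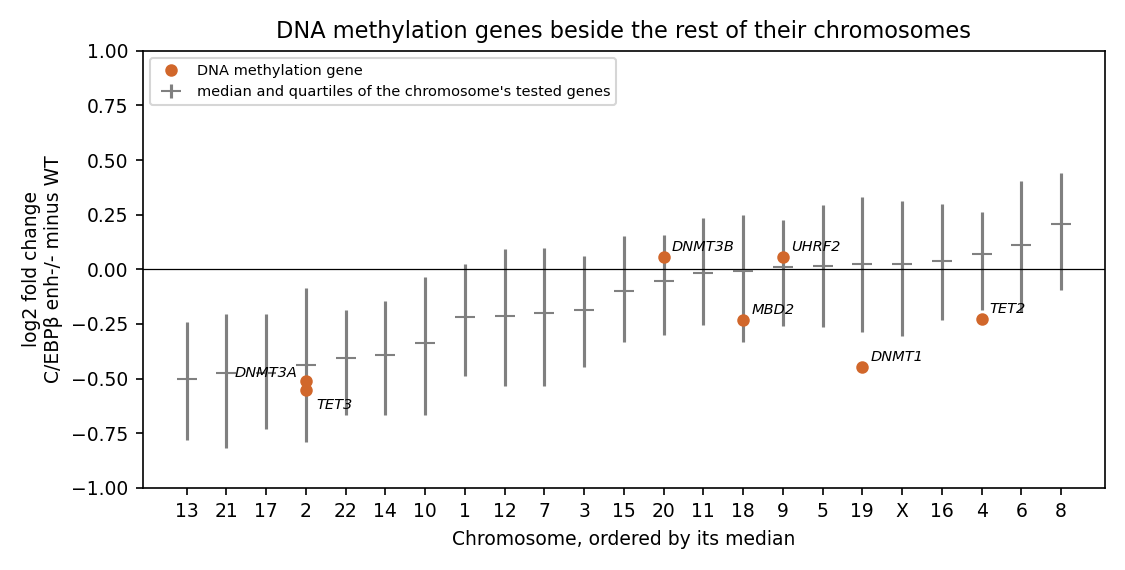
Median log2 fold change, C/EBPβ enh-/- minus WT, of the tested genes of each chromosome with its quartiles (grey), ordered from lowest to highest, and the 7 tested DNA methylation genes (orange points). With the pseudocount of 1 plotted here, DNMT3A and TET3 lie between the quartiles of chromosome 2 (median −0.44), and DNMT1 lies below the lower quartile of chromosome 19.

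Genes that work with these enzymes were examined in 7 lists, and 0 genes of any list passed the threshold. Among partners of maintenance and recruitment, 10 of 12 genes were tested, 5 below and 5 above 0, with a median of −0.02. Centring or rescaling without the highest genes left 2 below and 8 above 0, while the share of all tested genes below 0 went from 62.6% to 47.1% and 44.8%. HELLS, a chromatin remodeller needed for methylation of repeats, had 47.4 and 39.4 FPKM in WT and 20.0 and 29.7 FPKM in C/EBPβ enh-/- cells (log2 fold change −0.80, adjusted p = 0.158, limma). CDCA7, which works with HELLS, had 10.4 and 11.9 FPKM against 4.91 and 7.72 FPKM (−0.75, adjusted p = 0.174, limma). The third named gene, TRIM28, a corepressor, had overlapping values (0.27, adjusted p = 0.680, limma). Of the 10 genes, HELLS and CDCA7 were the 2 separated by genotype (20.0%, against 37.5% of all tested genes in the lower direction), and under both of those scalings 3 of the 10 were separated in the higher direction, near the 28.1% and 30.3% of all tested genes.

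All 11 listed subunits of NuRD, the complex that MBD2 brings to DNA, had log2 fold changes below 0, with a median of −0.36, and 9 of them were separated by genotype, against 37.5% of all tested genes. The counts depended on scaling. When libraries were centred on their median, 9 of 11 were below 0 and 5 separated (45.5%, against 25.2% of all tested genes), with a median of −0.18. When rescaled without the highest genes, 8 were below 0 and 4 separated (36.4%, against 23.1%), with a median of −0.15. MBD3, a NuRD subunit that was counted with the readers, had overlapping values (0.26, adjusted p = 0.575, limma). MTA1 had 20.4 and 20.8 FPKM in WT and 5.43 and 10.1 FPKM in C/EBPβ enh-/- cells (log2 fold change −1.36, standard error 0.30, adjusted p = 0.0778, limma). The remodelling ATPase CHD3 was at −0.85 (adjusted p = 0.146, limma) and GATAD2A, which bridges MBD2 to the remodelling subunits, at −0.71 (adjusted p = 0.154, limma). The deacetylases HDAC1 and HDAC2 were at −0.36 and −0.40.

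Among genes of demethylation, its repair and its cofactors, 8 of 11 were below 0, with a median of −0.52, and 7 were separated, against 62.6% of all tested genes below 0 and 37.5% separated in the lower direction. The median was −0.35 with 6 separated (54.5%, against 25.2% of all tested genes) when centred, and −0.31 with 5 separated (45.5%, against 23.1%) when rescaled without the highest genes. IDH1, which makes the 2-oxoglutarate that TET enzymes use, had 65.3 and 38.7 FPKM in WT and 22.6 and 17.4 FPKM in C/EBPβ enh-/- cells (log2 fold change −1.30, standard error 0.30, adjusted p = 0.0870, limma). The base excision repair enzymes NTHL1 and APEX1 were at −0.78 and −0.61 (adjusted p = 0.156 and 0.253, limma). TDG, the glycosylase that removes the products of TET oxidation, was at −0.52. In the methyl donor cycle, 6 of 9 genes were below 0, with a median of −0.36, and 5 were separated, beside the same shares over all tested genes. The median was −0.18 with 4 separated (44.4%, against 25.2% of all tested genes) when centred, and −0.13 with 3 separated (33.3%, against 23.1%) when rescaled without the highest genes. AHCYL1, a relative of AHCY, had 48.7 and 30.8 FPKM in WT and 7.96 and 16.1 FPKM in C/EBPβ enh-/- cells (log2 fold change −1.68, standard error 0.37, adjusted p = 0.0789, limma). AHCY, which clears S-adenosylhomocysteine, the product that inhibits methyltransferases, was at −0.94 (adjusted p = 0.146, limma), and SHMT1, an enzyme of one-carbon metabolism, at −0.88 (adjusted p = 0.0913, limma). MAT2A, which makes the methyl donor itself, had overlapping values (0.09).

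Of the other CpG-binding proteins and their relatives, 0 passed the threshold. Of 13 tested of 14, 7 were below and 6 above 0, with a median of −0.11, and 5 were separated in the lower and 3 in the higher direction (38.5% and 23.1%, against 37.5% and 15.1% of all tested genes). When centred the median was 0.06, with 2 lower and 5 higher (15.4% and 38.5%, against 25.2% and 28.1%). When rescaled without the highest genes it was 0.05, with 2 lower and 6 higher (15.4% and 46.2%, against 23.1% and 30.3%). CXXC1, which binds unmethylated CpG sites, had 15.5 and 25.5 FPKM in WT and 40.9 and 26.7 FPKM in C/EBPβ enh-/- cells (log2 fold change 0.70, adjusted p = 0.269, limma). ZBTB38, a zinc finger reader of methylated DNA, had 34.3 and 31.3 FPKM against 19.3 and 20.8 FPKM (−0.68, adjusted p = 0.143, limma), and MBD5 was at −0.64 (adjusted p = 0.367, limma). MBD1 (chromosome 18 from 47793252 to 47808144), whose values were also separated in the higher direction, was at 0.54. It lies beside CXXC1 (from 47808713 to 47814209) on the same strand, so they are not 2 separate places in the genome.

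DNMT1 is known to be expressed with the genes of DNA replication, so 16 genes of S phase and proliferation were set beside it. Of these, 10 were below (62.5%, against 62.6% of all tested genes) and 6 above 0, with a median of −0.18. When centred or rescaled without the highest genes, 8 were below and 8 above (50%, against 47.1% and 44.8%). In all, 5 were separated in the lower and 3 in the higher direction (31.2% and 18.8%, against 37.5% and 15.1%). These counts were 3 and 6 when centred (18.8% and 37.5%, against 25.2% and 28.1%). They were 2 and 6 when rescaled without the highest genes (12.5% and 37.5%, against 23.1% and 30.3%). The summed level of the 16 was 911 and 1099 FPKM in WT and 928 and 932 FPKM in C/EBPβ enh-/- cells. MCM5 and MCM2, subunits of the replicative helicase, were at −0.89 and −0.58 (adjusted p = 0.240 and 0.232, limma), and CCNE2, a cyclin of S phase entry, at 0.79 (adjusted p = 0.176, limma). PCNA, the replication clamp, and MKI67, a marker of cycling cells, had overlapping values. The part of proliferation in the DNMT1 values was not tested.

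**Figure D5:**
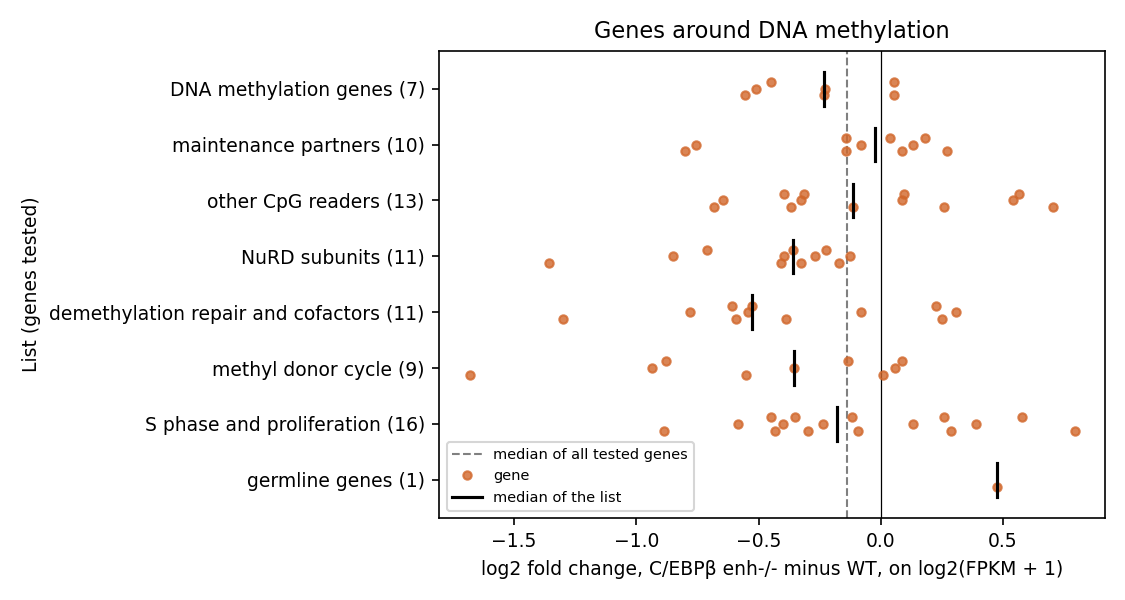
Log2 fold change of each tested gene, C/EBPβ enh-/- minus WT, on log2(FPKM + 1), in the DNA methylation genes and the 7 lists, with the median of each list as a bar and that of all tested genes as a dashed line (−0.14); numbers in brackets are genes tested. The 11 listed NuRD subunits lie below 0 at this scaling and the other CpG readers on both sides of it.

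Many germline genes are kept silent in somatic cells by methylation of their promoters. Of 11 such genes, 10 were under 1 FPKM in all 4 libraries, among them DAZL, DDX4 and SYCP3. MOV10L1, a helicase of the piRNA pathway, was the only one tested. It had 1.11 and 0.789 FPKM in WT and 1.80 and 1.61 FPKM in C/EBPβ enh-/- cells (log2 fold change 0.47, adjusted p = 0.366, limma). Its WT mean of 0.951 FPKM was under the filter of 1, so it was tested only because of its C/EBPβ enh-/- values (mean 1.70 FPKM). The direction of its change is therefore not independent of the filter. These RNA levels do not measure methylation.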

How the data were processed

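RNA-seq values of 4 libraries were used, 2 WT and 2 C/EBPβ enh-/-, with the genotype and replicate number from the sample titles. For each library, the authors deposited a table of FPKM per gene. Per the labels, the submitters' processing notes name hg19, TopHat2 2.0.13, Cufflinks and edgeR. The step each tool was used for is not given there. FPKM is relative to all other genes of a library. The 5 most abundant genes took 18.8% to 22.3% of the total in WT and 27.4% to 35.1% in C/EBPβ enh-/- cells. Of 57815 identifiers per file, 57768 remained without the copies on chromosome Y, and 55535 matched a gene symbol by their unversioned Ensembl identifier. UHRF1 matched none, so the planned ratios with UHRF1 were not computed. Gene coordinates and exon overlaps came from GENCODE release 44 on GRCh37 and promoters from RefSeq on GRCh38.p14.

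Genotypes were compared on log2(FPKM + 1) for the 12491 genes whose FPKM averaged 1 or more over the libraries, using limma 3.58.1 in R 4.3.3 (lmFit, eBayes with trend, two-sided, Benjamini-Hochberg adjustment over all tested genes, threshold 0.05). The fit was tested on simulated data. Relative depth was estimated from low FPKM of genes annotated with 1 transcript longer than 1000 nt. Only 59.7% to 61.0% of these values fell within 10% of whole fragments, so the depths are approximate. Intervals are 95% confidence intervals from limma, and with n = 2 the number of libraries limits the precision. The members and lists were chosen with earlier results of these data known. Named beside the members were CEBPB and the 3 genes of each list with the largest absolute log2 fold change. HDAC1, HDAC2, TDG, MAT2A, MBD1, MBD3, PCNA, MKI67 and single markers were named after their values were seen. Alternatives were limma without trend, 0.1 as pseudocount, testing all genes, a filter at mean FPKM 5, rescaling to equal totals with and without the 5 highest genes of any library, centring on the median, the replicate number as a block, and leaving out each library. Python 3.11.15, pandas 2.3.3, scipy 1.17.1 and matplotlib 3.10.9 were used for tables and figures.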

Additional observations from a re-analysis of the deposited data

How the results depend on the processing

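Of 80 log2 fold changes of the 7 genes under 12 alternatives, 0 had an adjusted p under 0.05 (limma; smallest 0.205, for TET3 without C/EBPβ enh-/- library 2), and 76 kept their sign. The 4 that changed it were DNMT3B without WT library 1 (−0.0334) or C/EBPβ enh-/- library 1 (−0.0580), and UHRF2 without WT library 2 (−0.0103) or C/EBPβ enh-/- library 1 (−0.0756), and the highest values without a library were 0.167 for DNMT3B and 0.184 for UHRF2. Each such fit has a single library in 1 genotype, assumed to vary like the others. Across these fits, DNMT1 ranged from −0.53 to −0.36, DNMT3A from −0.64 to −0.38, TET3 from −0.68 to −0.43, TET2 from −0.39 to −0.0639 and MBD2 from −0.39 to −0.0784, with both extremes of TET2 and MBD2 coming from leaving out a WT library. The median of the 7 genes ranged from −0.39 without WT library 2 to −0.0784 without WT library 1, was −0.0596 when centred on the median and −0.0417 when rescaled without the highest genes. DNMT3L and TET1 could be fitted only without the filter, at −0.01 and 0.00154.

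The ratio of the 3 methyltransferases to the 3 TET genes was higher by 1.37 in C/EBPβ enh-/- cells without WT library 2 and by 0.558 without C/EBPβ enh-/- library 2, and lower without WT library 1 (−1.38) or C/EBPβ enh-/- library 1 (−0.568), against a difference of −0.00494 with all libraries. The difference in the ratio of DNMT3B to DNMT3A was 0.455 with all libraries, 0.179 without C/EBPβ enh-/- library 1 and 0.730 without C/EBPβ enh-/- library 2, and that of TET3 to TET2 stayed between −0.245 and −0.155.

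Over all tested genes, the 151 lower genes became 93 with the replicate block, 61 when rescaled to the same total, 58 (with 31 higher) when rescaled without the highest genes, 68 (with 31 higher) when centred and 9 to 22 without a library. The 31 higher genes became 20 with a mean FPKM of at least 5 and 3 to 20 without a library. Without the filter, limma called 0 lower and 0 higher, with 2710 and 1136 at an unadjusted p under 0.05. The cause was not tested. Across genes, the deviations of same-numbered libraries correlated at r = 0.0094, so the numbers were not taken to pair the libraries, and the block changed no call among the 7 genes. The approximate depth limits the genes near 0, and 2 libraries per genotype limit the rest.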
